A study of Homo sapiens with 8 samples.

Results

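The 10 genes described here carry the retinoic acid pathway: the receptors RARA, RARB, RARG and RXRA, the enzymes ALDH1A1, ALDH1A2, ALDH1A3 and DHRS3, and the clearing enzymes CYP26A1 and CYP26B1. They were taken by name from the 20033 protein-coding genes of GENCODE release 44, and every H3K27ac peak in the gene body or within 50 kb of either end was counted in each library. Peaks were found in 7 of the 10 windows, and these peaks merged into 38 of the 15752 regions of the series, of which 15 were called in all 4 libraries, beside 65.5% of all regions. H3K27ac, acetylation of lysine 27 of histone H3, marks active promoters and enhancers, and was mapped by ChIP-seq in pancreatic progenitors (PPs) derived from the human embryonic stem cell line MEL1, in the study's methods MEL1 INS GFP/W, which carries a GFP reporter at the insulin gene. All PPs were kept in EF6, a medium with EGF, bFGF and the TGFβ inhibitor 616452, and received DMSO (2 libraries) or 1 μM I-BET151 (2 libraries) for 7 days, with 1 input library for each. I-BET151 blocks the bromodomains of BET proteins, which read acetylated histones. MEL1 is a single line, and nothing in the sources used here says whether the replicates came from separate differentiations, so p-values cover only the spread between these libraries.

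Retinoic acid is made from vitamin A in steps: retinol is oxidised to retinal, and retinal dehydrogenases of the ALDH1A family turn retinal into the acid, while DHRS3 turns retinal back into retinol. The acid binds RAR receptors, which sit on DNA as partners of RXR receptors, and CYP26 enzymes degrade it. The pathway patterns the foregut and is used to direct stem cells to the pancreatic fate, and the PPs of this study had been exposed to the retinoid agonist TTNPB at an earlier stage of their differentiation. RARB, CYP26A1 and DHRS3 are widely known as genes that retinoic acid itself induces.

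Sequences were searched for direct repeats of the receptor-binding unit AGGTCA and its variants (GGGTCA with another first base, AGTTCA with another inner base, and the combination GGTTCA) on both strands, with 5 bases (DR5), 2 bases (DR2) or 1 base (DR1) between the units. A DR5 match stood in 2 of the 20 RefSeq promoters (GRCh38.p14) of the members, those of RARB and CYP26A1, against 31 of all 35116 promoters (0.0883%). The units searched include both units of the RARB site, and both genes are known targets of retinoic acid, so this contrast is a description only. Another DR5 match lay inside an acetylated region of RARA and of DHRS3. The sites are shown because they place the receptors' best known element beside the peaks, and the repeat units are in capitals. All are from hg38, read 5′ to 3′ on the strand of the match: chr3:25428204-25428233 (plus), chr10:93073796-93073825 (minus), chr17:40341647-40341676 (plus) and chr1:12595975-12596004 (minus).
RARB promoter: gggtagGGTTCAccgaaAGTTCActcgcat
CYP26A1 promoter: acaattAGTTCAcccaaAGTTCAtctttaa
RARA region: caggcgAGTTCAgcgagAGTTCAgccgcat
DHRS3 region: gctccgGGTTCAgccacAGGTCAgcggcgc
The RARB site began 53 bp before a transcription start and the CYP26A1 site 90 bp before one. The RARB, CYP26A1 and DHRS3 sites overlapped annotated exons, and the RARA site lay between exons of the gene. Whether an acetylated region was called beside each site differed. The CYP26A1 window had no peak in any library. A weak region ended 128 bp from the RARB site and was called in 1 library of each group. The RARA site lay in a region of all 4 libraries, and the DHRS3 site, 310 bp downstream of an internal start, lay in a region called only in the 2 I-BET151 libraries. No DR5, DR2 or DR1 match fell within 250 bp of a summit in the 38 member regions, and 0.127% of all regions held a DR5 match there. A DR2 match, chr1:12528817-12528830 (plus), lay 87 bp outside a region far downstream of DHRS3 that was called only in the DMSO libraries. Over the whole interval of each region, a search added after seeing the data, 2 of the 38 member regions held a DR5 match, against 0.222% of all regions. Both were 1200 to 1700 bp long, a class with 4 member regions, and 0.261% of all regions in it held a match. The class was picked with these matches known, so its share is a description only. A match describes letters and not binding, and no match says nothing about a receptor.

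The 4 lists held 12312 to 14248 peaks, and 79.77 to 84.15% of their summits were no more than 3 kb from the start of a protein-coding transcript. Depths worked out from the caller's values were 7.757 to 9.839 M ChIP reads, highest in DMSO replicate 2, which also had the longest list. Lists of the same group shared more covered sequence (Jaccard index 0.8208 and 0.831) than lists of different groups (0.7246 to 0.7344). Of 10 PP markers, 9 had a peak within 3 kb of a start in every library, including PDX1, NKX6-1 and SOX9, and PTF1A had none. Of the other markers looked for, none of the 5 endocrine or 3 hepatic genes had such a peak, while LIN28B (1 of 3 pluripotent), CDX2 (1 of 1 intestinal) and PDGFRB (1 of 4 mesenchymal) had it in every library of both groups. Among 15190 gene windows with a peak, covered length was lower in both I-BET151 libraries than in both DMSO libraries in 44.4% and higher in both in 12.5%.

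Across the members, coverage was lower in both I-BET151 libraries for RARA, RARG and RXRA, higher in both for CYP26B1, and overlapping between the groups for RARB, ALDH1A2 and DHRS3. Thus 3 of the 7 windows with peaks were lower, beside 44.4% of all gene windows with peaks, and 1 of 7 was higher, beside 12.5%, so both counts were close to the background. Summed over the 10 windows the peaks covered 17.41 and 17.59 kb in the DMSO libraries and 16.73 and 14.66 kb in the I-BET151 libraries. The I-BET151 mean was lower by 10.3%, while the mean over all gene windows with peaks was lower by 13.5%. With only the peaks nearest to a start of a member, the summed difference shrank from -1.8 to -0.1755 kb. The median difference was -0.05 kb over the 7 members with peaks and -0.09 kb over all such windows. With 2 libraries against 2, the two-sided exact permutation test cannot go below p = 0.33, so no single difference here could pass a threshold of 0.05.

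**Figure D1:**
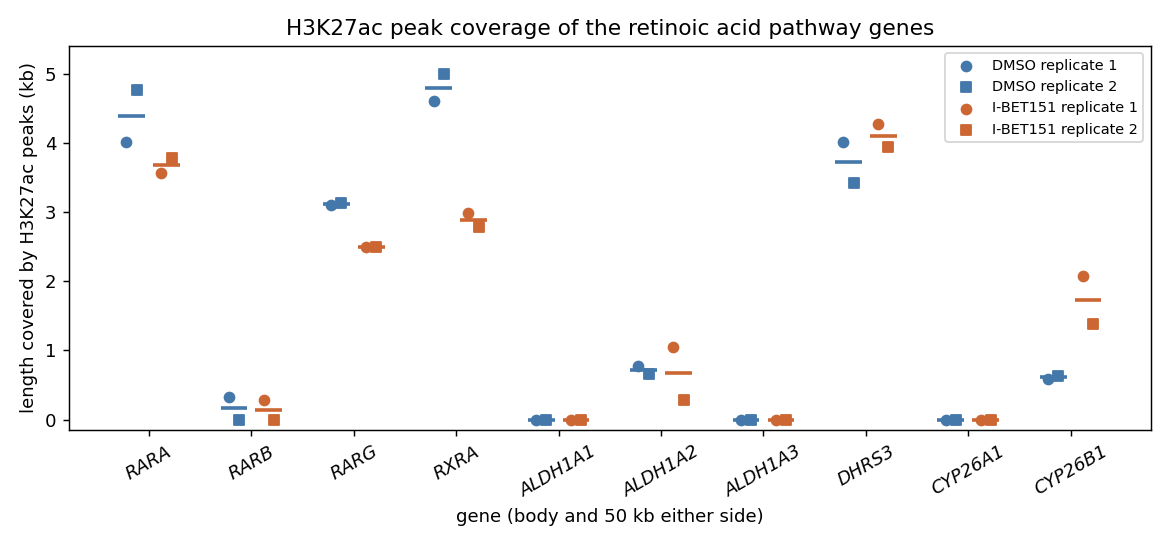
Length covered by H3K27ac peaks (kb, y axis) in the body and 50 kb either side of each gene (x axis), with 1 point per library and a bar at each group's mean. RXRA, RARA and RARG sit lower in both I-BET151 libraries, CYP26B1 sits higher, and ALDH1A1, ALDH1A3 and CYP26A1 lie at 0 in all 4.

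**Figure D2:**
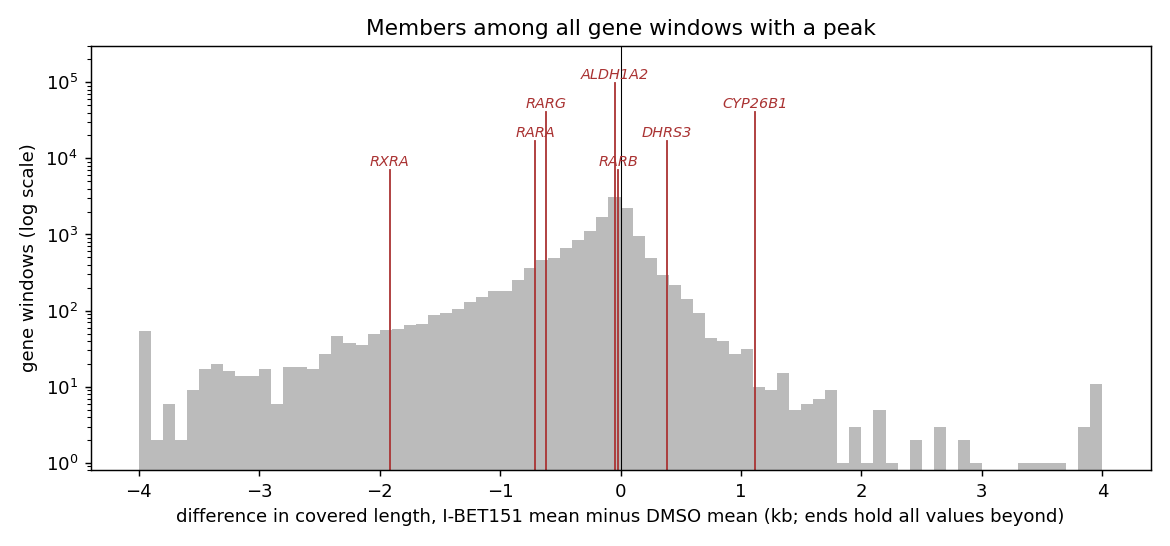
Difference in covered length, I-BET151 mean minus DMSO mean (kb, x axis), for 15190 gene windows with a peak (grey bars, number on a log scale, with values beyond the ends in the end bars) and for the 7 members with peaks (red lines, whose height has no meaning). RXRA at -1.92 kb lies in the lower tail, CYP26B1 at 1.12 kb in the upper tail, and the other members between them.

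RXRA, the partner of the RAR receptors on DNA, had the largest difference of the members, towards lower coverage with I-BET151. Its peaks covered 4.6 and 4.99 kb in the DMSO libraries and 2.979 and 2.78 kb in the I-BET151 libraries. The groups did not overlap, and the difference of -1.92 kb (4.8 ± 0.276 against 2.88 ± 0.141 kb, mean ± SD, n = 2 each) had an exact permutation p of 0.33, the smallest possible. A difference at least as low was seen in 3.06% of gene windows with a peak. That share depends on starting coverage, which was 4.8 kb here and 2 kb on average over gene windows with peaks in DMSO. Peak numbers went from 5 and 8 to 3 and 3 (exact permutation p = 0.33). At the main start the summit held 34.8 and 31.51 ChIP reads per M (mega) of the library in DMSO and 32.36 and 33.47 in I-BET151, values that overlap between the groups. The region there covered 1975 and 1998 bp with DMSO, against 1831 and 1609 bp with I-BET151, and so was narrower in both. An intron region with its summit 2484 bp downstream of the start covered 1383 and 1319 bp with DMSO, against 778 and 802 bp with I-BET151, and its summit went from 29.52 and 28.05 to 22.3 and 24.14 reads per M, a ratio of 0.807 between the group means. Regions that all 4 libraries shared gave -0.861 kb of the RXRA difference, and lost regions -0.742 kb.

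A region was counted as lost when the DMSO libraries both had a peak there and no I-BET151 library did, and as gained in the converse case. The member windows held 4 lost regions of 38, beside 8.60% of all regions, and 3 gained regions, beside 2.81%. The lost regions were a pair inside RXRA, 1 intron region of CYP26B1 and 1 region far downstream of DHRS3, and the gained regions were a pair at the CYP26B1 start and 1 at an internal DHRS3 start. A region that is not called may still be acetylated below the caller's threshold. Ranked by p-value, the gained and lost regions stood between the top 57.8% and the top 98.5% of their lists, so they were among the weaker peaks. The 241 bases around the summits of both lost RXRA regions and the gained CYP26B1 and DHRS3 regions are given to show the sequence whose call differed, from hg38 on the strand of the gene, with any single receptor-binding unit in capitals: chr9:134356747-134356987 and chr9:134364550-134364790 (plus), chr2:72147306-72147546, chr2:72148398-72148638 and chr1:12595087-12595327 (minus).
RXRA lost region 1: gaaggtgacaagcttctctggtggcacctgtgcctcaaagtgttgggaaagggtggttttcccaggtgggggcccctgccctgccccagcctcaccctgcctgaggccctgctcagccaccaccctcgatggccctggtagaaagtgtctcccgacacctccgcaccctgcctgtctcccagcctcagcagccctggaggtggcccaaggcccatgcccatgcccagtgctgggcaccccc
RXRA lost region 2: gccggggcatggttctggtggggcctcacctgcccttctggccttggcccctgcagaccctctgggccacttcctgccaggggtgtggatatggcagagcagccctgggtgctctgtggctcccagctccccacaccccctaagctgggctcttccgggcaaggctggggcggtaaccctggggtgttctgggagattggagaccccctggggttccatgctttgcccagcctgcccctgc
CYP26B1 gained intron region: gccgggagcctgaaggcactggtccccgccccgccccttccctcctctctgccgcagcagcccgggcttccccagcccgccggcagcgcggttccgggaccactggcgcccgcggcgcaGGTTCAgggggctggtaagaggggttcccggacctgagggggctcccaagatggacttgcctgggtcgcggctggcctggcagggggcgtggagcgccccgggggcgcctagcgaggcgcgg
CYP26B1 gained upstream region: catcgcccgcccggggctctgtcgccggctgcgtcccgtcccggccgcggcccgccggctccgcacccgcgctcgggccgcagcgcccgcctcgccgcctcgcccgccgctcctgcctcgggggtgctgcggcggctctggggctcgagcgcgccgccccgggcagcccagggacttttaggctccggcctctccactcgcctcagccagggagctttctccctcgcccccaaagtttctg
DHRS3 gained region: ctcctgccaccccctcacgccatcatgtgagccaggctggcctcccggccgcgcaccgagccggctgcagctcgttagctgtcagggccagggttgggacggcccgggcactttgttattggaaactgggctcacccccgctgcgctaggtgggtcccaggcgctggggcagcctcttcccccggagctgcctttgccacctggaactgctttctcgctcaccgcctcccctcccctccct
Both RXRA sequences held 3 CG dinucleotides, whereas the 3 gained sequences held 24, 35 and 15 in the order shown. The other 2 lost regions, of CYP26B1 and DHRS3, held 9 each around their summits. GC content was 66.4 and 67.6% in the RXRA sequences, 68.9 and 60.2% in the lost CYP26B1 and DHRS3 sequences, and 76.8, 78.4 and 68.9% in the gained ones. Over the whole series the median GC content was 68.9% in gained regions, 66.4% in lost regions and 71.4% in regions of all 4 libraries. A single unit was present in 1 of the 3 gained sequences, that of the CYP26B1 intron, and in 2 of the 4 lost ones, those of CYP26B1 and DHRS3.

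The lost RXRA regions lay in introns, 22428 and 14625 bp before the nearest annotated start of the gene. The first, chr9:134356665-134357084, had folds of 5.74 and 5.2 over local background and 11.93 and 14.03 reads per M at the summit in the DMSO libraries. The second, chr9:134364422-134364856, had folds of 4.82 and 4.46 and 13.94 and 13.52 reads per M. DMSO replicate 2 alone had a further peak next to each of them, at 134355772 and 134365093. No I-BET151 library had a peak between the intron region 2484 bp from the start and a region near the end of RXRA, chr9:134435180-134435620. That last region was called in all 4 libraries with 11.31, 13.52, 9.798 and 10.58 reads per M.

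RARA, the RAR receptor with the widest expression, had 5 regions in all 4 libraries, of which 4 lay nearest to its own starts. Peak coverage of its window was 4.01 and 4.758 kb with DMSO, against 3.569 and 3.781 kb with I-BET151. The groups did not overlap, with a difference of -0.71 kb (4.38 ± 0.529 against 3.67 ± 0.15 kb, n = 2 each, exact permutation p = 0.33). This call rests in part on a neighbour. One region of the window, chr17:40362801-40363608, lay nearest to GJD3 and covered 633 and 808 bp in DMSO but 279 and 273 bp in I-BET151. With only the peaks nearest to a RARA start, the window held 3.377 and 3.95 kb with DMSO, against 3.29 and 3.508 kb with I-BET151, and the groups overlapped. They also overlapped with equal numbers of top-ranked peaks per list, at 3.338 and 4.758 kb against 3.569 and 3.781 kb. The RARA regions did not all move one way. The region with the DR5 match, chr17:40341231-40342795, went from 34.54 and 32.42 to 24.11 and 25.88 reads per M, a ratio of 0.746, and its width from 1560 and 1562 to 1470 and 1435 bp. The region at 40345086, the highest of the gene, went from 47.48 and 42.59 to 40.87 and 42.43 reads per M, and the one at 40318229 from 26.13 and 24.9 to 26.69 and 28.74. The summits of the first 2 of these were lower in both I-BET151 libraries, the second only narrowly, and that of the last was higher in both. The exact permutation p was 0.33 for each of the 3 summits. Fold did not separate the groups at the first 2. It was 5.05 and 4.99 in DMSO against 3.53 and 6.36 in I-BET151, and 6.06 and 7.31 against 6.59 and 11.4. At the last it was higher in both I-BET151 libraries, as it was at the shared region at 40331967, whose summits overlapped.

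RARG, the receptor found mostly in skin and early embryonic tissues, had a covered length of 3.102 and 3.128 kb with DMSO, against 2.499 and 2.495 kb with I-BET151. The groups were well apart, by -0.62 kb (3.11 ± 0.0184 against 2.5 ± 0.00283 kb, n = 2 each, exact permutation p = 0.33). Only 1 shared region lay nearest to RARG itself, in an intron at chr12:53221104-53222178. It covered 1075 and 1005 bp with DMSO, against 653 and 663 bp with I-BET151, and its summit went from 28.26 and 25.31 to 17.66 and 18.79 reads per M. The ratio of 0.68 was the lowest among regions nearest to a member's own start. Fold over local background did not separate the groups at this region, with 4.83 and 6.19 in DMSO and 4.55 and 6.39 in I-BET151. Local input there was 55.5 and 41.55 times the input's genome-wide level in DMSO and 38.5 and 28.47 times in I-BET151. Input was raised at most summits of the series, with medians of 42.63 and 37.77 times in DMSO and 38.5 and 40.67 times in I-BET151. Further regions at RARG starts were called in DMSO replicate 1 alone (335 bp) and DMSO replicate 2 alone (282 bp), and the rest of the coverage lay at CSAD, MFSD5 and ESPL1, genes within 50 kb. With equal numbers of top-ranked peaks per list the RARG groups still did not overlap, at 2.767 and 2.589 kb against 2.499 and 2.495 kb.

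RARB, the receptor gene whose promoter carries the best studied response element, had a single region, chr3:25427737-25428082, in a window that spans a gene body of 910 kb. It was called in DMSO replicate 1 (fold 6.8) and I-BET151 replicate 1 (fold 8.53), with 4.145 and 5.286 reads per M at the summit, and in neither replicate 2. These were among the lowest summits of the member regions, and local input was low there, 3.265 and 3.5 times the input's genome-wide level. The groups overlapped, and the difference of -0.02 kb was far smaller than the spread between replicates.

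None of the retinal dehydrogenases was clearly marked. ALDH1A1 and ALDH1A3 had no peak in any library. ALDH1A2, the dehydrogenase that makes most retinoic acid in the early embryo, had 0.774, 0.659, 1.048 and 0.286 kb in DMSO replicates 1 and 2 and I-BET151 replicates 1 and 2, and the groups overlapped. GENCODE extends the ALDH1A2 body over 544.4 kb, and the regions at 58438147 and 58444880 on chromosome 15 lay in an intron of both ALDH1A2 and LIPC, nearest to a LIPC start. The only region at an ALDH1A2 start, chr15:58065996-58066334, was called in I-BET151 replicate 1 alone with a fold of 2.49 and 10.7 reads per M.

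DHRS3, the retinal reductase, carried the strongest acetylation of the members. Its promoter region chr1:12616124-12617540 stood in the top 0.105 to 1.24% of the 4 lists by p-value. The summit there held 48.11 and 44.01 reads per M in DMSO and 54.79 and 55.86 in I-BET151, so that both I-BET151 libraries were higher, by a ratio of 1.2 between the means. The neighbouring regions at 12617883 and 12619078 were also higher in both. They went from 41.45 and 36.59 to 47.18 and 46.53 reads per M, and from 8.919 and 7.724 to 13.15 and 10.45, ratios of 1.2 and 1.42. Each of the 3 had an exact permutation p of 0.33. Fold was higher in both I-BET151 libraries at the other two regions but overlapped at the first, with 13.4 and 16 in DMSO and 12.9 and 15 in I-BET151.

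The covered length of the DHRS3 window did not separate the groups. It was 4.005 and 3.426 kb with DMSO, against 4.273 and 3.933 kb with I-BET151, which overlap (difference 0.39 kb, exact permutation p = 0.67). Gained and lost regions opposed each other within the window, with 1.26 kb from the gained region and -0.88 kb from the lost one. The gained region, chr1:12595026-12596390, reached over an internal start of the gene and held the DR5 match. In I-BET151 replicate 2 it was 1 peak, with a fold of 3.2 and 16.42 reads per M at the summit. In I-BET151 replicate 1 it was 2 peaks, and the internal start and the DR5 match lay in the weaker one (fold 2.14). The stronger one, further into the gene, had the fold of 5.51 and the 16.24 reads per M of that library. The lost region, chr1:12527582-12528730, lay 68154 bp downstream of the internal start outside any protein-coding gene, and was nearer to a start of VPS13D. It had folds of 9.13 and 7.15 and 11.68 and 10.67 reads per M in the DMSO libraries. Within 10 kb of the gene body the coverage was 2.222 and 2.428 kb with DMSO, against 3.891 and 3.547 kb with I-BET151, and the groups no longer overlapped. When peaks with a −log10 q below 5 were left out of the 50 kb window, the difference turned to -0.44 kb.

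CYP26B1, which degrades retinoic acid, was the only member with higher coverage in both I-BET151 libraries. Its peaks covered 0.591 and 0.632 kb with DMSO, against 2.075 and 1.387 kb with I-BET151. The groups were apart by 1.12 kb (0.611 ± 0.029 against 1.73 ± 0.486 kb, n = 2 each, exact permutation p = 0.33). A difference at least as high was seen in 0.632% of gene windows with a peak. Peaks numbered 1 and 2 in DMSO and 4 and 3 in I-BET151 (exact permutation p = 0.33). The position of the peaks differed too. In DMSO both libraries had a peak in an intron, chr2:72137828-72138418 (folds 3.75 and 2.58), 4791 bp downstream of the nearest start, and no peak over the main start. In I-BET151 that peak was not called, and both libraries had peaks over the main start and just upstream of it, chr2:72147176-72147956 (folds 3.38 and 3.27) and chr2:72148316-72148723 (folds 5.19 and 7.63). The first of the gained regions held 16.37 and 16.8 reads per M, and the second held 16.76 in I-BET151 replicate 1 and could not be resolved in replicate 2. CYP26A1, a related enzyme that retinoic acid induces in many cells, had no peak in any library, and none was found with 100 kb either side.

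**Figure D3:**
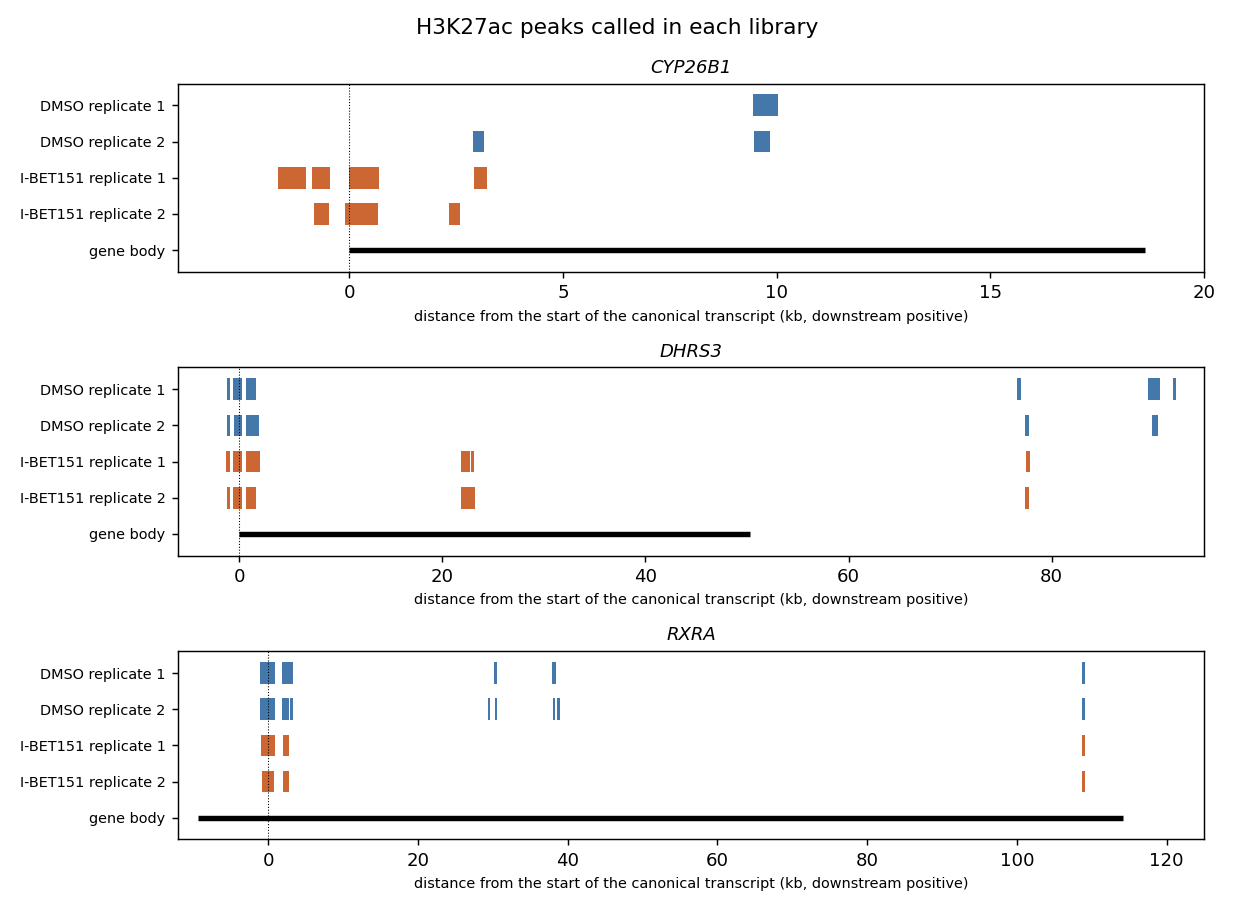
H3K27ac peaks called in each library (rows, coloured by group) along CYP26B1, DHRS3 and RXRA, by distance from the start of the canonical transcript (kb, downstream positive), with the annotated gene body in black. CYP26B1 has peaks at its start in the I-BET151 libraries alone, DHRS3 has 1 internal region in those libraries alone, and the peaks inside the RXRA body 30.2 and 38 kb downstream of its start are seen in the DMSO libraries alone.

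Of the 15 member regions called in all 4 libraries, summit height in reads per M was higher in both I-BET151 libraries in 5 and lower in both in 7, beside 29.8% and 31.2% of the 9982 shared regions resolved in all 4 libraries. The higher ones were the 3 DHRS3 promoter regions, 1 RARA region and the region in ALDH1A2 that lies nearest to LIPC. The lower ones lay in the windows of RARA (3), RARG (2) and RXRA (2). Width was smaller in both in 8 of the 15, beside 33.3% of shared regions, and larger in both in 2, beside 16.0%, both of them at DHRS3. Fold was higher in both in 5, beside 25.4%, and lower in both in 2, beside 16.3%. Fold and reads per M therefore gave different counts of lower regions. Fold also contains the local input, reads per M rests on estimated depths, and the source of the difference was not tested.

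**Figure D4:**
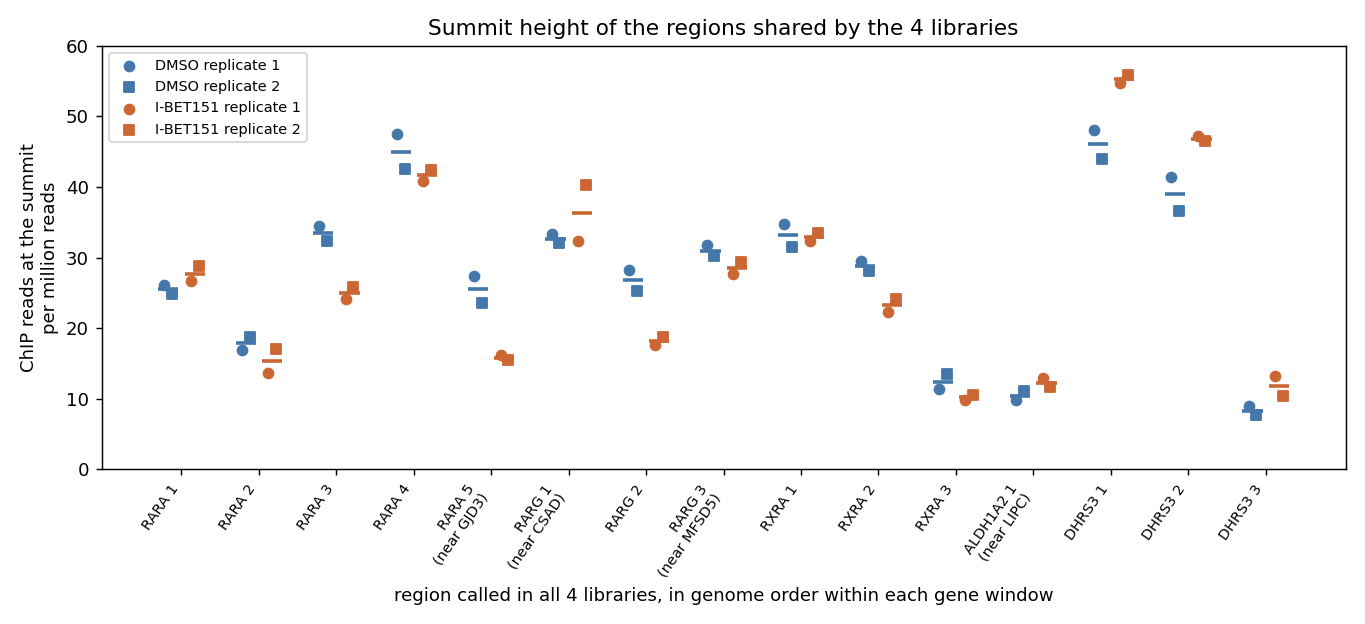
ChIP reads at the summit per M (mega) ChIP reads (y axis) in the 15 regions of the member windows called in all 4 libraries (x axis, in genome order within each window, with the neighbouring gene named where its start is nearer), 1 point per library and a bar at each group's mean. The 3 DHRS3 regions sit higher in both I-BET151 libraries, and RARG 2, RARA 3 and RXRA 2 sit lower.

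The wider pathway was described with 23 further genes, of which 18 had peaks. Coverage was higher in both I-BET151 libraries in 3, lower in both in 3 and overlapping in 12, beside 12.5% higher and 44.4% lower among all gene windows with a peak, and the median difference over the 18 was 0.02 kb. FABP5, a carrier of retinoic acid, went from 0.751 and 0.933 to 1.4 and 1.261 kb. TGM2, a transglutaminase that retinoic acid induces, had 0.447 and 0.333 kb in DMSO and no peak in I-BET151. NCOA2 (0.02 kb higher) and NCOR1 (-0.07 kb) also did not overlap, by margins that are small beside their covered lengths of 2.5 and 2.68 kb in DMSO. Each of these 4 differences had an exact permutation p of 0.33. RXRG, CYP26C1, DHRS9, RBP4 and LRAT had no peak in any library.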

How the data were processed

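H3K27ac ChIP-seq of PPs was described by 1 deposited peak list per ChIP library. By their methods and processing notes, the authors mapped read pairs to hg38 using Bowtie2 2.2.5, dropped duplicate and mitochondrial reads, and ran MACS2 2.1.2 with default settings on each library. The deposited lists hold, for each peak, the interval, the summit, the fold (a ratio to the local background level), and −log10 p and −log10 q as the authors' caller gave them. The 4 input libraries were not analysed here on their own and entered only through the caller.

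Peaks were assigned to windows of GENCODE release 44, and peaks of the 4 libraries that overlapped by 1 bp or more were merged. Groups came from the library titles. For covered length, peak number and the summit heights of shared regions, p-values came from exact permutation, two-sided, of the libraries' group labels (6 assignments). Since MACS2 derives the fold and p-value from whole ChIP reads and a local input level, both were worked out for each summit, which resolved 98.65 to 99.42% of peaks per list. On 1850 simulated peaks 99.3% were resolved, with correct read numbers in 100% of them. These peaks were drawn from the same formula, so they do not test whether the lists follow it or whether the depths are right. Library depths were estimated from the lowest input level with the caller's default genome size and the shortest peak as fragment length. Fragments without molecular identifiers are not independent molecules, and duplicate removal limits summit heights.

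The members, the wider gene list and the markers were chosen with earlier results of these data known. All 10 members were described, wider genes were named where the groups did not overlap, except for some that are not reported here, and neighbouring genes where a member's value turned on them. Counts of members and of regions, and ranges of values in single libraries, were described without a test. Alternatives were windows of 10 and 100 kb, peaks nearest to a member's own start, −log10 q of at least 5, lists cut to 12312 peaks, merging within 500 bp, a cover of 50%, each library left out, a replicate block, and, chosen after seeing the data, canonical transcript windows, reads per M and motif matches over whole regions. Python 3.11.15, numpy 2.4.6, pandas 2.3.3, scipy 1.17.1, pysam 0.24.0 and matplotlib 3.10.9 were used.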

Additional observations from a re-analysis of the deposited data

How the results depend on the processing

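Of 194 values recomputed for 23 results, 166 kept their direction and, for counts, stayed within 1.5 times, though differences in kb could change in size. The 166 include the windows of ALDH1A1, ALDH1A3 and CYP26A1, which gave 0 kb under every alternative. They also include the kb differences with a replicate block, which a block cannot change, so the tally overstates how stable the results were. RARA gave -0.2645 kb with own-start peaks, RARG -0.181 kb with equal lists and DHRS3 1.42 kb with own-start peaks. The summed peak number gave -4 in place of -2 with −log10 q of at least 5. CYP26B1 stayed higher and RXRA and RARG stayed lower in mean coverage under all alternatives run, as did RARA, whose groups overlapped with its own-start peaks or equal lists. The summed difference of -1.8 kb ran from -0.1755 kb (own-start peaks) to -2.98 kb (−log10 q of at least 5), with -0.868 kb for 10 kb either side and -0.8735 kb for equal lists, and from -0.767 to -2.84 kb without each library in turn, the smallest without I-BET151 replicate 2. The members with higher coverage numbered 2 in place of 1 with 10 kb either side or own-start peaks, DHRS3 being the second, and 1 to 3 when a library was left out (2 without DMSO replicate 1, 3 without I-BET151 replicate 2). Leaving out a library gave 3 to 6 gained regions (most without I-BET151 replicate 2) and 4 to 9 lost ones (most without DMSO replicate 1). Over all regions the same steps gave 595 to 952 gained and 1644 to 2164 lost, beside 443 and 1355 with all 4 libraries. There too the most came without those same libraries. Leaving out a library also gave 2 to 6 wider shared regions (most without I-BET151 replicate 2). Those with higher fold numbered 5 to 8 (most without DMSO replicate 2 or I-BET151 replicate 1). Those with lower fold numbered 2 to 5 (most without DMSO replicate 1 or I-BET151 replicate 2). Each rule, also that for members with higher coverage, is easier to meet with fewer libraries, so these counts tend to rise. Shared regions with a lower summit numbered 7 in reads per M and 2 in fold. DR5 matches numbered 2 over whole regions and 0 near summits. RARB gave 0.038 kb with 100 kb either side, 0.144 kb with equal lists, and -0.178 to 0.144 kb without each library in turn (above 0 without DMSO replicate 1 or I-BET151 replicate 2). ALDH1A2 gave 0.17 kb with own-start peaks or the canonical transcript, and -0.43 to 0.33 kb without each library (above 0 without those same libraries). DHRS3 gave -0.44 kb with −log10 q of at least 5 and -0.24 kb with equal lists. The causes were not tested. With a replicate block, 2 members were higher (DHRS3 joined CYP26B1) and 3 lower, 3 regions were gained and 4 lost, and the summed difference stayed at -1.8 kb, -0.673 and -2.93 kb in the same-numbered pairs. The numbers were not taken to pair the libraries, since the labels do not say what they mark. The deviations correlated at 0.0118 over regions and 0.11 over windows, but 2 pairs cannot decide the question. Peaks below the caller's threshold are not in the lists, so a missing peak does not show missing acetylation, and DMSO replicate 2 was the deepest library.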

Other observations

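Several regions inside the member windows lay nearest to other genes, and their summits moved in different ways. At CSAD, 39419 bp from the nearest RARG start, the summit held 33.29 and 32.02 reads per M in DMSO and 32.36 and 40.31 in I-BET151, which overlap. At MFSD5 it held 31.78 and 30.19 in DMSO and 27.72 and 29.36 in I-BET151, lower in both. The region at ESPL1 was called in DMSO replicate 2 and both I-BET151 libraries, with 13.52, 16.24 and 13.19 reads per M. The region nearest to GJD3 in the RARA window had the lowest ratio of all 15 shared regions, 0.621, from 27.38 and 23.58 to 16.24 and 15.43 reads per M. In the ALDH1A2 window the region near LIPC at 58444880 held 9.798 and 11.08 reads per M in DMSO and 12.89 and 11.69 in I-BET151, while its fold ran from 3.58 to 22.8 within the I-BET151 group, beside local input levels of 32.54 and 2.667 times the genome-wide level.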
